A study of Homo sapiens with 4 samples.

Results

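The miR-30 family was followed in small RNA libraries of HEK293T, an established line of human embryonic kidney origin (the cell line label reads HEK293 and the protocol HEK293T). Its members were taken by gene symbol, through the Ensembl identifiers of the count tables, and were MIR30A, MIR30B, MIR30C1, MIR30C2, MIR30D and MIR30E, 6 of 7062 listed features. They form 3 pairs in the genome, which are the units compared here: MIR30E with MIR30C1 on chromosome 1, MIR30A with MIR30C2 on chromosome 6, and MIR30D with MIR30B on chromosome 8. In both groups the cells had been transiently transfected with 1.5 μg per well of a plasmid for an RPB1 with a C-terminal domain (CTD) of 52 heptad repeats, RPB1 being the catalytic core subunit of RNA polymerase II, or Pol II. They were then kept for 72 h in α-amanitin at 2.5 μg/ml, a Pol II toxin that eliminates untransfected cells, so that the controls carry the same toxin and the same kind of plasmid. In 52X WT the CTD was wild type, and in 52X T4A threonine 4 of the heptads was replaced by alanine, which cannot be phosphorylated. Each group had 2 libraries, given as biological replicates, and the comparison asks how the level of each small RNA differs between the CTD forms.

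MicroRNAs (miRNAs) are cut from hairpins within longer, mostly Pol II, transcripts, first by Drosha in the nucleus and then by Dicer in the cytoplasm. An Argonaute protein loads 1 strand of the resulting duplex and pairs its seed, bases 2 to 8, with target mRNAs, whose translation and stability fall. The miR-30 family is widely expressed and abundant in kidney epithelium, where its members are known for restraining mesenchymal genes, and each pair of loci is thought to be made from a shared primary transcript.

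Sequences were matched in RefSeq (GRCh38.p14) for 4 of the 6 loci, and the 5′ mature strands are shown with the seed in capitals because the seed is what makes these genes a family.

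hsa-miR-30a-5p: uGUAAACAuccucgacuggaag
hsa-miR-30e-5p: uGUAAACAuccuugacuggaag
hsa-miR-30c-5p: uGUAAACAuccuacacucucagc

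The last of these is encoded by both MIR30C1 and MIR30C2. The strand of MIR30A lies at 71403595 to 71403616 on the minus strand of chromosome 6, and that of MIR30E at 40754371 to 40754392 on the plus strand of chromosome 1. These 3 strands share the seed GUAAACA. With positions counted from 1 at the 5′ end and the base of miR-30e first, miR-30e-5p and miR-30a-5p differed by the single substitution U13C. miR-30c-5p shared its first 12 bases with both and differed from each at 5 of the 22 bases compared. The seed is therefore identical while the 3′ part is not.

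The 3′ strands were printed to show that they fall into a separate set of seeds, again in capitals.

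hsa-miR-30a-3p: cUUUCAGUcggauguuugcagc
hsa-miR-30e-3p: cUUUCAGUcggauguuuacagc
hsa-miR-30c-1-3p: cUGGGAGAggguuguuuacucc
hsa-miR-30c-2-3p: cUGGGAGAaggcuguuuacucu

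miR-30e-3p and miR-30a-3p differed by A18G alone, and miR-30c-1-3p and miR-30c-2-3p by G9A, U12C and C22U, with miR-30c-1-3p first. A count in these tables belongs to a whole hairpin, so that the strands of a hairpin cannot be separated. The hairpins of the chromosome 6 pair are given with both mature strands in capitals to show the window over which reads were summed.

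MIR30A: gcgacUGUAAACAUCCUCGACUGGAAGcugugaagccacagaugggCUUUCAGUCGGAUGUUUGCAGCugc
MIR30C2: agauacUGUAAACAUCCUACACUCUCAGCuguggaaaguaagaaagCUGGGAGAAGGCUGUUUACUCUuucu

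A read of miR-30c-5p matches MIR30C1 and MIR30C2 equally well, so their separate counts are uncertain and may hold the same reads. MIR1-1 and MIR1-2, copies of another miRNA, had near-equal counts. These were 738 and 740 in 52X T4A replicate 1, and 1259 and 1253 in 52X T4A replicate 2. In 52X WT they were 220 and 219 in replicate 1, and 309 and 307 in replicate 2. Whether reads of miR-30c-5p were counted at both loci was not tested. The count at MIR30C1 was 0.665 to 0.774 of that at MIR30C2 over the 4 libraries.

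The positions below are those of the count tables (hg38 in the labels). MIR30E (ENSG00000198974.3, chromosome 1 from 40754355 to 40754446, plus strand) and MIR30C1 (ENSG00000207962.1, 40757284 to 40757372, plus strand) are 2837 bases apart. In GENCODE v44lift37, read on its own build GRCh37, both lie in an intron of all 16 overlapping transcripts of NFYC, which codes for the gamma subunit of the CCAAT-binding factor NF-Y, on the same strand. MIR30A (ENSG00000207827.1, chromosome 6 from 71403551 to 71403621, minus strand) and MIR30C2 (ENSG00000199094.3, 71376960 to 71377031, minus strand) are 26519 bases apart within the long noncoding RNA gene LINC00472 on the same strand. MIR30A is intronic in all 11 of the overlapping LINC00472 transcripts and MIR30C2 in 8 of 9, the other having an exon there.

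MIR30D (ENSG00000199153.1, chromosome 8 from 134804876 to 134804945, minus strand) and MIR30B (ENSG00000207582.1, 134800520 to 134800607, minus strand) are 4268 bases apart. They are intronic in both overlapping transcripts of the long noncoding RNA gene ENSG00000289405 in GENCODE v44lift37, and they fall within the extent that RefSeq gives for ZFAT, a zinc finger gene (134477788 to 134832339, GRCh38.p14). No other listed small RNA lay within 100 kb of the pairs on chromosomes 6 and 8, and only RN7SL326P, a 7SL pseudogene with at most 7 counts in a library, near the pair on chromosome 1.

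The libraries held between 16180790 and 27370127 counts, of which miRNAs took 63.5% to 75.3%, and 1480 features, among them 621 miRNAs and all 6 miR-30 loci, passed the filter on low counts. Levels below are CPM, which are counts scaled to a common library total after adjustment by TMM factors (0.901 to 1.15), and SDs and means are over 2 libraries. TMM assumes that most features do not differ, and the factors of 52X T4A replicate 2 (1.15) and 52X WT replicate 1 (0.901) were farthest from 1. As the cells were lysed in bulk, a loss of cells that express a miRNA and a lower level per cell cannot be told apart. The tables hold small RNAs only. A list of kidney miRNAs is read below for differences between the groups, and the kidney identity of the cells was not tested. Muscle miRNAs (6 loci, led by MIR1-1 and MIR1-2, with MIR133B at 0 in both 52X WT libraries) summed to 81.6 and 96.7 CPM in 52X T4A and 30.5 and 33.1 CPM in 52X WT. Their part in the results was not tested. Blood (4 loci) stayed at or under 1.52 CPM, MIR122 of liver (2 features on opposite strands) at or under 0.948 CPM and MIR124 of neurons (3 copies) at 4.36 to 12.1 CPM, and none of these loci was at 0 in all 4 libraries. The part of these cell types was likewise not tested. The muscle and MIR124 sums include copies with near-equal counts. In 52X T4A replicate 1 these were 738 and 740 for MIR1-1 and MIR1-2, and 23 at each MIR124 copy. A read may thus be counted more than once in these sums.

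The 6 loci fell into a high and a low tier, with 1 locus of each pair in each tier. Levels between loci were compared per length of hairpin, in CPM per kb. MIR30A was highest, from 220306 to 301182 CPM per kb over the 4 libraries, followed by MIR30D (184657 to 259203) and MIR30E (136446 to 193017). The ranges of neighbours in this order overlapped, although the order per kb held inside each of the 4 libraries. The order of MIR30D and MIR30E depended on the division by length. In CPM, MIR30E was above MIR30D in 52X WT replicate 2, at 17134 against 16813. The low tier was MIR30C2, at 4990 to 6945 CPM per kb, MIR30C1, at 2745 to 4348, and MIR30B, at 770 to 1423, and these ranges did not overlap. Among 621 tested miRNAs ranked per length, MIR30A was 5th, MIR30D 7th and MIR30E 8th, whereas MIR30C2, MIR30C1 and MIR30B were in positions 77, 92 and 146. Over all libraries MIR30A gave 37.1% of the counts of the family, MIR30D 30.9% and MIR30E 30.3%, against 0.890% for MIR30C2, 0.655% for MIR30C1 and 0.202% for MIR30B.

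**Figure D1:**
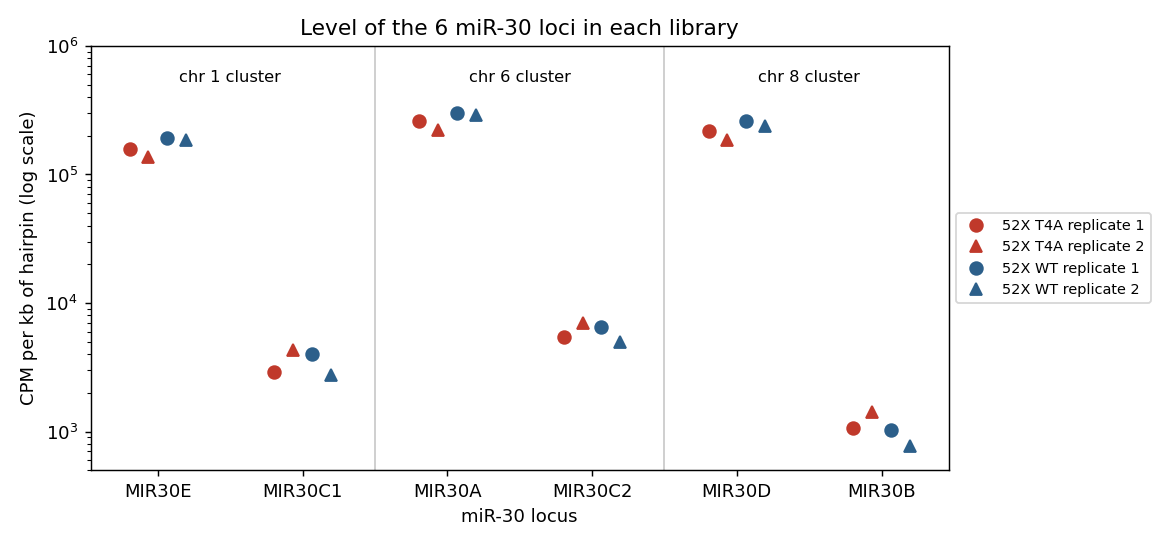
Level of each miR-30 locus in CPM per kb of hairpin (log axis), with loci grouped by genomic cluster on the x axis. Each point is 1 library, red for 52X T4A and blue for 52X WT, circles for replicate 1 and triangles for replicate 2. Each cluster has a locus at or above 136446 and a partner at or below 6945 CPM per kb.

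The high tier was lower in 52X T4A than in 52X WT in every library, by a margin that did not pass the test. MIR30A, the most abundant member, was at 18380 and 15642 CPM in 52X T4A and at 21384 and 20421 CPM in 52X WT. MIR30D was at 15308 and 12926 CPM in 52X T4A and at 18144 and 16813 CPM in 52X WT. MIR30E was at 14588 and 12553 CPM in 52X T4A and at 17758 and 17134 CPM in 52X WT. For these 3 loci both libraries of 52X T4A lay under both libraries of 52X WT, and 52X T4A replicate 2 was the lowest of all. The same order of groups held without scaling factors, where the unscaled CPM of MIR30A was 17979 and 18044 for 52X T4A against 19268 and 20065 for 52X WT. In edgeR's quasi-likelihood test the log2 fold change (52X T4A over 52X WT) was −0.30 ± 0.19 (SE) for MIR30A, −0.31 ± 0.19 for MIR30D and −0.36 ± 0.19 for MIR30E. As point estimates these are 0.814, 0.808 and 0.778 of the 52X WT level, and none was called, the Benjamini-Hochberg adjusted p-values of edgeR being 0.546, 0.542 and 0.467. The 95% intervals of the fold ran from 0.608 to 1.09, from 0.601 to 1.09 and from 0.582 to 1.04, and each interval includes 1. The log2 fold changes of MIR30A, MIR30D and MIR30E were closer to 0 by library size alone, at −0.13, −0.14 and −0.19, and without 52X T4A replicate 2, at −0.17, −0.18 and −0.24.

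The partners on chromosomes 6 and 1 had estimates near 0, and whether they differed from the high tier was not tested. MIR30C2, which encodes miR-30c with MIR30C1, was at 390 and 500 CPM in 52X T4A and at 465 and 359 CPM in 52X WT. MIR30C1 was at 259 and 387 CPM in 52X T4A and at 359 and 244 CPM in 52X WT. In both loci the groups overlapped, with 52X T4A replicate 2 the highest library and 52X WT replicate 2 the lowest. As both loci may hold the same reads, their likeness is not a separate observation. The log2 fold changes were 0.11 ± 0.25 (SE) for MIR30C2 and 0.10 ± 0.29 for MIR30C1 (edgeR, Benjamini-Hochberg adjusted p 0.917 and 0.945). The 95% intervals of the fold, 0.732 to 1.59 and 0.681 to 1.69, allow a moderate change either way. Both signs turned when 1 library was left out. Without 52X T4A replicate 2 the values of MIR30C2 and MIR30C1 were −0.065 and −0.20, and without 52X WT replicate 2 they were −0.064 and −0.15.

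MIR30B, the partner of MIR30D, had the lowest level and the largest log2 fold change of the family, and it pointed the other way. It had 1497 and 3954 counts in 52X T4A and 1332 and 1276 in 52X WT, or 94.6 and 125 CPM against 91.3 and 67.8 CPM. The groups did not overlap, but 52X T4A replicate 1 and 52X WT replicate 1 were close to each other. The log2 fold change was 0.47 ± 0.29 (SE), the fold was 1.38 with a 95% interval from 0.876 to 2.18. It did not pass the threshold (adjusted p 0.544 by the Benjamini-Hochberg method in edgeR). Leaving out 52X T4A replicate 2 or 52X WT replicate 2 brought the log2 fold change to 0.27 in each case.

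**Figure D2:**
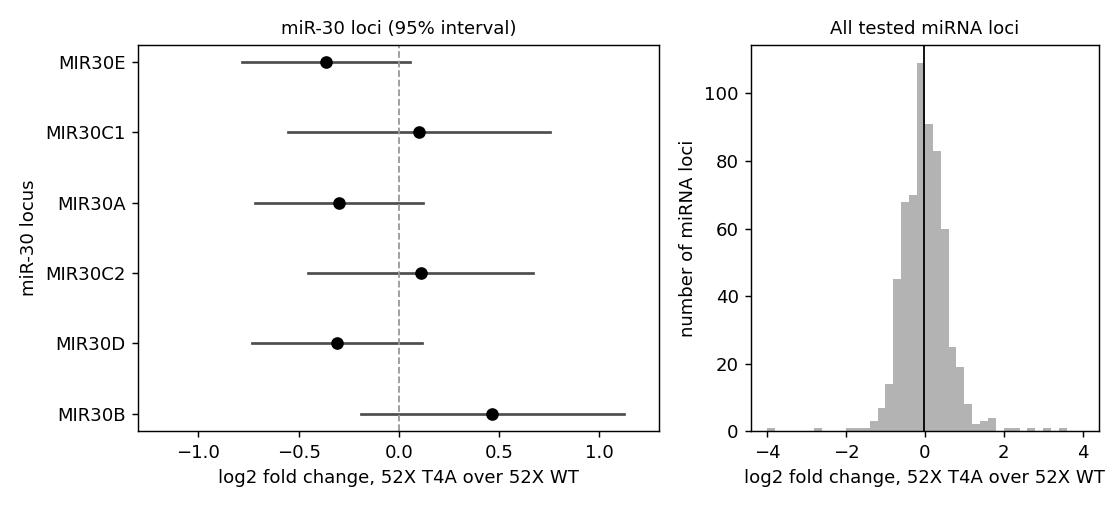
Left, log2 fold change of each miR-30 locus (52X T4A over 52X WT, points) with its 95% interval from edgeR (lines), ordered by cluster, with 0 dashed. Right, number of tested miRNA loci by log2 fold change, with their median of −0.017 as a line. The intervals of all 6 loci include 0, and the estimates of MIR30E, MIR30A and MIR30D lie near −0.3.

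None of the 6 loci was called at an adjusted p below 0.05 and a fold change above 1.5, and over all features 2 of 1480, or 0.135%, were. DESeq2 also called none of the 6. At an unadjusted p below 0.05 edgeR had 152 features, 10.3% of those tested, and again none of the 6. The CPM ranges of the groups were separate for 4 of the 6 loci, against 40.1% of all tested features. They did not overlap with 52X T4A lower for 3 of the 6, against 21.2% of all tested features and 26.9% of tested miRNAs. The median log2 fold change was −0.099 over the 6 loci, −0.017 over the 621 tested miRNAs and −0.045 over all tested features, and 3 of the 6 loci and 321 of the miRNAs were below 0. The loci are not 6 independent observations, since pairs may share a primary transcript and MIR30C1 and MIR30C2 share a mature strand.

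The summed level of the family followed the high tier. It was 49019 and 42133 CPM in 52X T4A and 58201 and 55040 CPM in 52X WT, means of 45576 ± 4869 and 56620 ± 2236 CPM (SD, n = 2). The difference in log2 CPM was −0.32, with a pooled SD between replicates of 0.12, and both libraries of 52X T4A were under both of 52X WT. This difference depended on the scaling, being −0.14 by library size alone and −0.15 with upper quartile factors. As a share of all counts the family took 4.83% ± 0.0463 in 52X T4A and 5.33% ± 0.116 in 52X WT (SD, n = 2). As a share of miRNA counts it took 6.61% ± 0.220 and 7.81% ± 0.627. Leaving out 52X T4A replicate 1 gave −0.44 and leaving out 52X T4A replicate 2 gave −0.19, so that the size of the difference rests on which 52X T4A library is used while its sign did not turn in any setting.

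The clusters were then compared with each other through ratios within a library, which need no scaling factor. Each cluster gave a nearly fixed part of the family. The sum of a cluster was almost all its high-tier locus, as MIR30C2, MIR30C1 and MIR30B gave 0.890%, 0.655% and 0.202% of the family. The cluster ratios therefore mainly reflect MIR30A, MIR30E and MIR30D. The chromosome 6 pair gave 38.3% and 38.3% of miR-30 counts in 52X T4A and 37.5% and 37.8% in 52X WT. The chromosome 1 pair gave 30.3% and 30.7% in 52X T4A and 31.1% and 31.6% in 52X WT, and the chromosome 8 pair 31.4% and 31.0% in 52X T4A and 31.3% and 30.7% in 52X WT. The largest shift was that of chromosome 6 over chromosome 1, with ratios of 1.26 and 1.25 in 52X T4A and 1.21 and 1.20 in 52X WT. On the log2 scale the group means differed by 0.064, with a pooled SD between replicates of 0.011. The groups did not overlap, but the shift was small and the SD rests on 2 libraries per group. How many other pairs of miRNA loci were set apart as far was not examined. The ratio of chromosome 8 over chromosome 1 differed by 0.049 with a pooled SD of 0.033, and its groups were separate only beyond the second decimal, at 1.01 in both 52X T4A replicate 2 and 52X WT replicate 1. The ratio of chromosome 6 over chromosome 8 differed by 0.016 with an SD of 0.022, and its groups overlapped. With MIR30C1 and MIR30C2 left out, the difference was 0.065 for chromosome 6 over chromosome 1, 0.059 for chromosome 8 over chromosome 1 and 0.0059 for chromosome 6 over chromosome 8. No test was made of the ratios, as 2 libraries against 2 cannot give an exact permutation p-value below 1 in 3.

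Inside each cluster the balance of the loci varied far more. The ratios with MIR30C1 and MIR30C2 rest on separate counts that are uncertain, because reads of miR-30c-5p match both loci. Both loci may hold the same reads, so these ratios may not be separate observations. The count of MIR30E was 56.3 and 32.4 times that of MIR30C1 in 52X T4A, and 49.5 and 70.1 times in 52X WT. The count of MIR30A was 47.2 and 31.3 times that of MIR30C2 in 52X T4A, and 45.9 and 56.8 times in 52X WT. Both ratios overlapped between groups, were lowest in 52X T4A replicate 2 and were highest in 52X WT replicate 2. The count of MIR30D was 162 and 103 times that of MIR30B in 52X T4A, and 199 and 248 times in 52X WT, and here the groups did not overlap. The differences of the group means in log2 ratio were −0.46 for MIR30E over MIR30C1, −0.41 for MIR30A over MIR30C2 and −0.78 for MIR30D over MIR30B. The pooled SDs between replicates were 0.47, 0.33 and 0.36, so the first was within the replicate spread, the second was above it although its groups overlapped, and the third was above it without overlap. Without 52X T4A replicate 2 the 3 differences were −0.066, −0.12 and −0.46.

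The 3 high-tier loci, each from a different cluster, kept closer ratios to each other than to their cluster partners. Over the 4 libraries the SD of the log2 count ratio was 0.019 for MIR30A and MIR30D, 0.038 for MIR30A and MIR30E and 0.041 for MIR30D and MIR30E, which lie on 3 chromosomes. It was 0.12 for MIR30C1 and MIR30C2, which share a mature strand, and 0.21 and 0.23 for MIR30B with MIR30C2 and with MIR30C1. Inside the clusters it was 0.36 for MIR30A and MIR30C2, 0.47 for MIR30E and MIR30C1 and 0.54 for MIR30D and MIR30B. Pairs of loci across tiers and across clusters had values from 0.36 to 0.57. For comparison, the median was 0.33 over 14878 pairs of the 173 miRNA loci with a mean of at least 1000 counts, and 0.544% of those pairs were as close as MIR30A and MIR30E, a share that includes copies with shared reads. Over 83 pairs of such miRNA loci outside the family, on the same strand and up to 10000 bases apart, the median was 0.25. Of these, 6 were at or above the value of MIR30E and MIR30C1 and 1 was at or above that of MIR30D and MIR30B, while MIR30A and MIR30C2 lie too far apart for this set. These values are descriptions over 4 libraries. MIR30A and MIR30E differ by 1 base in each strand (U13C and A18G above), and whether reads were counted at both was not tested. The sequence of MIR30D was not compared, and whether it shared reads with MIR30A or MIR30E was likewise not tested.

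**Figure D3:**
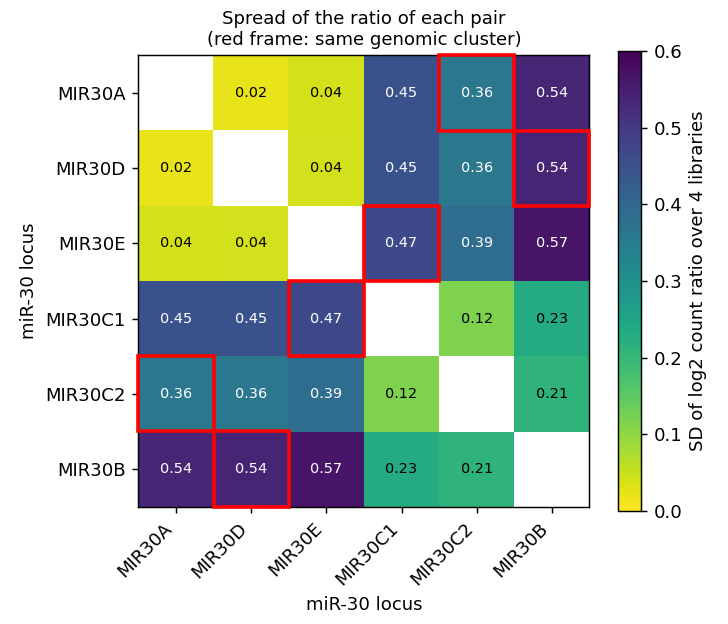
SD over the 4 libraries of the log2 count ratio for each pair of miR-30 loci (colour and number), with both axes listing the loci by tier and red frames marking loci of the same genomic cluster. MIR30A, MIR30D and MIR30E form a block at 0.019 to 0.041, and the framed pairs are at 0.36 to 0.54.

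Between replicates the tiers differed in opposite directions in 52X T4A and in the same direction, by unequal amounts, in 52X WT. From replicate 1 to replicate 2 of 52X T4A the log2 CPM differed by −0.23 for MIR30A, −0.24 for MIR30D and −0.22 for MIR30E, but by 0.36 for MIR30C2, 0.58 for MIR30C1 and 0.40 for MIR30B. In 52X WT the same differences were −0.07, −0.11 and −0.05 for the high tier and −0.37, −0.55 and −0.43 for the low tier. Replicate numbers have no order, and these values only show how far libraries of a group stood apart. Over the 173 abundant miRNA loci this difference had an SD of 0.31 between the 52X T4A libraries and of 0.33 between those of 52X WT. The low tier was thus highest in 52X T4A replicate 2, the deepest library, and lowest in 52X WT replicate 2, whereas 20.6% of tested miRNAs were highest in the former and 17.1% lowest in the latter. Within this tier MIR30C1 and MIR30C2 may hold the same reads.

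Among 167 other miRNA loci averaging 1000 counts or more, the 3 whose levels over the 4 libraries were most like the summed miR-30 level were MIR505, MIR181A1 and MIR181A2, with root mean square differences of 0.062, 0.066 and 0.066 in centred log2 CPM. MIR505, on the X chromosome, was at 110 and 103 CPM in 52X T4A and at 132 and 136 CPM in 52X WT. MIR181A1 was at 620 and 605 CPM in 52X T4A and at 765 and 740 CPM in 52X WT, and MIR181A2 at 608 and 575 against 702 and 701 CPM. MIR181A1 and MIR181A2 encode the same 5′ strand, so they count as a single likeness, and none of the 3 was called (edgeR, Benjamini-Hochberg adjusted p 0.594, 0.584 and 0.660).

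A list of 12 miRNA loci known from kidney epithelium was read beside the family. All 12 were listed, 11 passed the filter, 6 had a log2 fold change above 0 and 5 below, with a median of 0.35, and none was called (edgeR). MIR10A and MIR10B, the most abundant, were at −0.20 ± 0.18 and −0.17 ± 0.18 (log2 fold change ± SE), the same sign as the high tier of miR-30. The groups overlapped for MIR10B but not for MIR10A. MIR10A was at 98278 and 109776 CPM in 52X T4A and at 125307 and 112898 CPM in 52X WT. MIR192 and MIR215, which share a seed and are made in renal tubules, were at 0.53 ± 0.20 and 0.35 ± 0.23, opposite in sign to the high tier of miR-30. MIR192 was at 1325 and 1313 CPM in 52X T4A and 876 and 951 CPM in 52X WT, without overlap (edgeR, Benjamini-Hochberg adjusted p 0.421). The groups of MIR215 did not overlap either. Groups without overlap were found for 40.1% of all tested features. MIR194-2, the remaining locus of the list above a mean of 1000 counts, was at −0.12 ± 0.30 with overlap. The epithelial miR-200 group had few reads, with mean counts from 7.75 for MIR429, which was not tested, to 518 for MIR200C. Its log2 fold changes were 1.05 ± 0.40 (SE) for MIR200A, 0.91 ± 0.32 for MIR200B and 0.66 ± 0.31 for MIR200C, the 3 highest of the list and without overlap of the groups, and 0.41 ± 0.43 for MIR141, with overlap. MIR204, at a mean of 139 counts, was at −0.53 ± 0.33 without overlap, and MIR194-1 at −0.15 ± 0.30 with overlap.

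Over 14 alternatives the log2 fold change ran from −0.43 to −0.13 for MIR30A, from −0.45 to −0.14 for MIR30D, from −0.49 to −0.19 for MIR30E and from 0.27 to 0.67 for MIR30B. For MIR30C1 it ran from −0.20 to 0.35 and for MIR30C2 from −0.065 to 0.31. The lowest adjusted p-value of any of the 6 loci in any alternative was 0.401, for MIR30B by library size alone (edgeR, Benjamini-Hochberg).

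**Figure D4:**
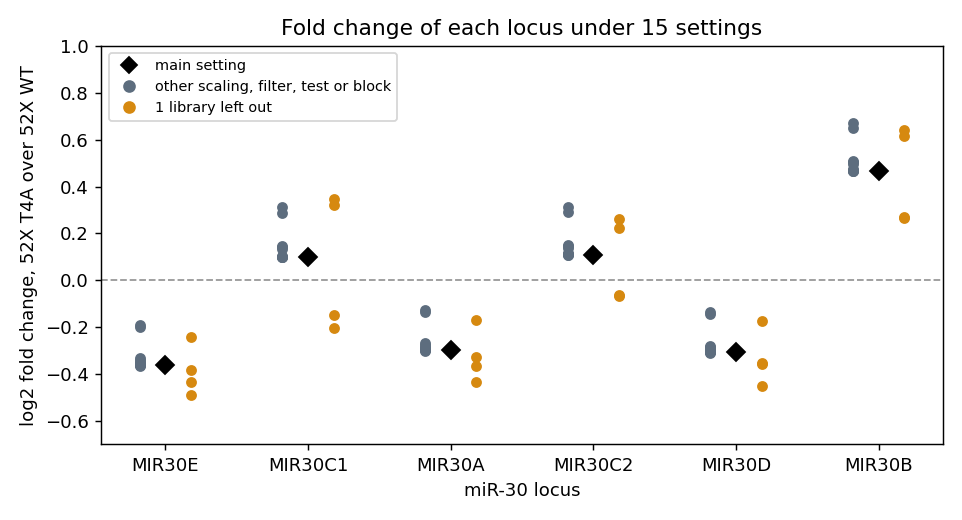
Log2 fold change of each miR-30 locus (52X T4A over 52X WT) under the main setting (black diamonds), 10 alternatives of scaling, filter, test or block (grey) and 4 fits that each left out a library (orange), with 0 dashed. MIR30E, MIR30A and MIR30D stay below 0 and MIR30B above it, whereas MIR30C1 and MIR30C2 cross 0 when a library is left out.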

How the data were processed

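Small RNA was sequenced as single-end reads of 50 bp from total RNA. Per the labels, the authors deposited raw read counts per feature for each library, without normalization, and the submitters' processing notes name cutadapt 4.6, Bowtie2 2.3.5.1, featureCounts 1.5.0 and the build hg38. Settings for strand and for reads with several matches were not given in the sources used here. All 7062 features carry the same positions in each table, and 4818 of them match a RefSeq gene position of GRCh38.p14. Names came from GENCODE v44lift37 by identifier (5579) or from RefSeq by position (908), and no coordinates were converted.

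The test was quasi-likelihood F in edgeR 4.0.16 (R 4.3.3), 52X T4A against 52X WT, over features passing filterByExpr at a minimum count of 10, with TMM factors and Benjamini-Hochberg adjustment over all features tested. A feature was called at an adjusted p below 0.05 and a fold change above 1.5. SEs are the log2 fold change divided by the square root of F, and 95% intervals use the t quantile of the total degrees of freedom. The biological coefficient of variation was 26.0%. The script was tested on simulated data. Alternatives were other scaling factors and filters, DESeq2 1.42.0, a robust fit, the replicate number as a block, removal of the 5 most abundant features and of each library. The features named were the 6 loci, the 3 miRNA loci of at least 1000 mean counts most like their sum, and lists of kidney, liver, muscle, blood and neuronal miRNAs. The members and lists were chosen with earlier results of these data known.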

Additional observations from a re-analysis of the deposited data

How the results depend on the processing

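None of the 6 miR-30 loci was called under any of the 14 alternatives. Of 84 pairings of a locus with an alternative, 80 kept the sign and 4 turned it, all from leaving out a library: MIR30C1 at −0.20 and −0.15 and MIR30C2 at −0.065 and −0.064 without 52X T4A replicate 2 and without 52X WT replicate 2. Over the fits without a library, MIR30C1 ran from −0.20 to 0.35 and MIR30C2 from −0.065 to 0.26. Over all features the number of calls was 2, and it was 9 by library size alone, 0 with TMM factors from miRNAs alone (143 at an unadjusted p below 0.05), 29 without a filter and 30 with DESeq2. Leaving out a library gave 4 to 218 calls, where the lone library is assumed to vary like the other group. The replicate block gave 18 calls. Libraries that share a number deviated from their group means with a correlation of 0.0946 across features, and the labels state no pairing, so the numbers were not treated as pairs. The median of all features was −0.045 with TMM factors and 0.14 by library size alone, so shifts of that size depend on the scaling.

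The difference of the summed level, −0.32, was −0.15 with upper quartile factors and −0.14 by library size alone, and from −0.44 to −0.19 over the fits without a library. When a library was left out, the difference in log2 ratio ran from −0.86 to −0.066 for MIR30E over MIR30C1, from −0.71 to −0.12 for MIR30A over MIR30C2 and from −1.11 to −0.46 for MIR30D over MIR30B, and that of chromosome 6 over chromosome 8 turned to −0.0039 without 52X WT replicate 1. The cause of these changes was not tested. Depth does not limit the high tier, with 230894 counts or more per locus and library, and 2 libraries per group limit all 6 loci.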
